A study of Mus musculus with 25 samples.

Results

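The CpG sites described here lie in promoters and first exons but outside CpG islands. A site was a member where the deposited annotation placed it in TSS1500 or TSS200 (the bands upstream of a transcription start), in a 5'UTR or in a 1st exon. It also had to lie in open sea or a Shelf, that is, away from an island and its immediate flanks, on chr1 to chr19, with an average coverage of at least 10 reads. This held for 12802 of 251026 CpGs with that coverage. First exons held 9259 of them, 5'UTRs 3071, TSS1500 317 and TSS200 155, while 10943 lay in open sea and 1859 in a Shelf. A gene name was missing for 1117.

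Methylation of mammary fat pads from wild-type C57BL/6N mice was measured by reduced representation bisulfite sequencing (RRBS), in which DNA is cut with MspI at CCGG and fragments of 40 to 170 bp are read after bisulfite treatment. Control mice (n = 5) ate a control diet. All other mice ate a 60% high-fat diet until obese, and then stayed obese (Obese, n = 4) or lost weight on 1 of 4 diets: LFD (n = 4), low in fat and not restricted, LFCR (n = 4), low in fat and 30% short of calories, MCR (n = 3), of Mediterranean style with the same 30% restriction, or ICR (n = 5), restricted intermittently. E0771 mouse mammary cancer cells were injected into the 4th fat pad of every mouse, Controls included, 25 weeks after the first diet assignment, and the DNA came from the contralateral 9th pad. The labels name this tissue as normal mammary tissue, but they also list the E0771 line for each sample and have the word tumor in the titles. Each weight-loss mouse had been obese before, so a difference from Control cannot be told apart from a trace of past obesity. No expression was measured, so the tissue could not be checked by the expression of marker genes.

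4 libraries stood apart, those from mice 27, 28 and 40 of Obese and mouse 46 of LFD. Member CpGs with a low Control level averaged 45.7% to 47.3% in these 4 libraries and 2.79% to 3.95% in the other 21. All results below use the 21 libraries, which leaves 3 LFD mice and only Obese mouse 22, for which no test was possible. The average coverage of members had a median of 33.6 reads (25th and 75th percentiles 20.2 and 58.2), taken over 21 libraries. Depth per library is unknown, since only fractions are given. A library had a value at 48.8% to 99.9% of members.

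As background, most promoters of housekeeping and developmental genes in mammals sit in CpG islands and stay unmethylated in all tissues. Promoters with few CpGs are often methylated, and many are unmethylated only in the cell types that use the gene, so that their level in a tissue follows its mix of cells. A mammary fat pad is mostly fat, with ducts, vessels, connective tissue and blood-derived cells. In such bulk DNA, a changed share of a cell type and changed methylation within a cell type cannot be told apart.

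For the comparisons, member CpGs of the same annotated genes were joined into stretches, with at most 200 bp between neighbours and at least 3 CpGs. There were 1758 member stretches, of which 958 had values in at least 3 mice of each diet group and were fitted. They held a median of 5 CpGs over 132 bp and named 947 genes. Short pieces of 8 of them are given to show the measured CpGs near the gene start. They are 30 bases each, from the RefSeq promoter windows of GRCm38.p6, 5′ to 3′ on the gene's strand, and capitals mark the measured CpGs. The first 4 belong to stretches lower in MCR than in Control and the last 4 to stretches higher in MCR.
Cldn15: aatcaacagctgCGgagCGgagcaggcttg
Zmynd8: gagaggcCGcCGagcagcCGcCGgaagcag
2810433D01Rik: tcagagcCGgctctgtctggggCGgcccag
3930402G23Rik: cttgcacCGtttccaggccaaCGggattca
Dok3: tctcccCGgaacttcagaactgCGgtggcc
Atp2b2: aatttccatttgccCGgggcctcagatatc
Rps6ka1: tgtaggagtcagaggcccctctggtcacCG
Parvg: ctgccttccacctcCGgaacctgtctgCGt

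The pieces lie at chr5:136967835-136967864 (plus strand) for Cldn15, a claudin of tight junctions, and at chr2:165858142-165858171 (minus strand) for Zmynd8, a chromatin reader. Those of the uncharacterised genes 2810433D01Rik and 3930402G23Rik lie at chr11:102624382-102624411 and chr8:10928528-10928557, both on the minus strand. Dok3, an adaptor protein of B cells and macrophages, has its piece at chr13:55528515-55528544 (minus strand), and Atp2b2, a plasma membrane calcium pump, at chr6:113934667-113934696 (minus strand). Rps6ka1, a kinase activated by ERK, has its piece at chr4:133874682-133874711 (minus strand), and Parvg, a focal adhesion protein of blood cells, at chr15:84324740-84324769 (plus strand). The Zmynd8 piece, in an exon shared with BC046401, holds all 4 CpGs of its stretch, which went from 44.3% in Control to 2.15% in MCR. The stretch at the Parvg piece went from 19.4% to 44.7%.

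Only 953 members (7.44%) fell inside one of the RefSeq windows, which run from 250 bases before to 50 bases after a gene start. No start on chr18 was listed, so members there count in this share but could not fall inside a window. Windows with a member CpG (n = 494) held a median of 9 CpGs and 57.7% G and C. Windows with an island promoter CpG (n = 2555) held 28 CpGs and 67.0% G and C, and all windows on chr1 to chr19 held a median of 7 CpGs (n = 31365, after windows at the same position among 31396 were counted once). The letters CCGG, the MspI site, were in 99.8% of the windows with a member and in 53.5% of all windows. TATAAA, the core of the TATA box, was in 8.70% of windows with a member and 13.6% of all. GGAAGT, a core bound by ETS factors, was in 24.3% of windows with a member and 23.9% of all. Of the 16 windows that held a stretch higher in MCR, 9 (56.2%) had GGAAGT, against 11 of 66 (16.7%) that held a stretch lower in MCR. Each motif was searched on both strands after results were known, CCGG and GGAAGT can share their GG, and a match is no evidence of binding.

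In Control tissue the members were mostly methylated, but far from evenly. Their Control mean had a median of 77%, with 45.7% of members over 80%, 44.1% between 10% and 80% and 10.3% under 10%. Promoter and first-exon CpGs in islands had a median of 2.5%, and open sea CpGs in gene bodies a median of 84.2%, so the members lay between those classes. By feature, the mean Control level was 38.8% in TSS200, 53.5% in TSS1500, 55.9% in 5'UTRs and 67.0% in first exons.

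**Figure D1:**
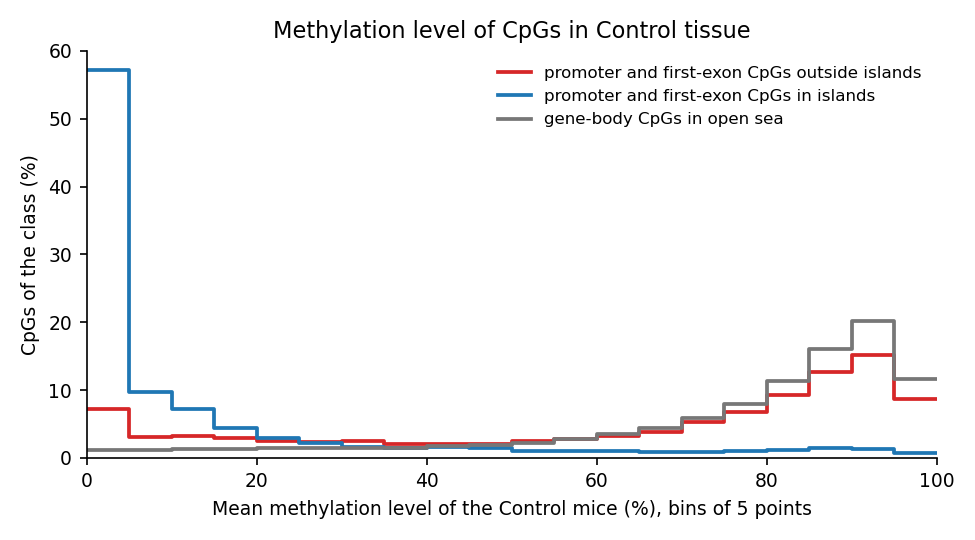
Share of CpGs (vertical axis, percent of the class) by mean methylation level of the Control mice (horizontal axis, percent, bins of 5 points) for promoter and first-exon CpGs outside islands, the same features in islands, and open sea gene bodies. Members outside islands fill the whole range, with a small peak near 0 and a broad one above 80%.

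Distance was also measured from the gene starts listed by RefSeq. Over 12491 members with a listed start on their chromosome, the median distance to the nearest one was 4383 bp, with 18.2% of members within 250 bp and 47.7% beyond 5000 bp. The mean Control level was 43.6% within 250 bp, 56.4% between 250 and 1000 bp and 69.9% between 1000 and 5000 bp. It was 72.0% between 5000 and 20000 bp and 68.6% farther away. CpGs close to each other had like levels: the median absolute difference in Control mean was 6.03 points for neighbouring members up to 20 bp apart, 7.14 points between 200 and 1000 bp and 20.4 points between 1000 and 10000 bp.

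The lowest Control level among stretches of 5 or more CpGs with a value in all 21 libraries was at C77080, where the 5 Control mice had 0% to 1.53% and the 3 MCR mice 0.256% to 0.720%. Hdac5, a class II histone deacetylase, had 1.45% to 3.89% in Control and 1.96% to 3.50% in MCR. Hoxc5, a homeobox gene, had 3.00% to 8.63% in Control and 2.45% to 3.46% in MCR. Art5, an ADP-ribosyltransferase, had 1.28% to 7.57% in Control and a wider spread in MCR (6.00%, 0.547% and 13.0%), and Fes, a tyrosine kinase of blood cells, had 6.64% to 11.9% in Control and 6.97% to 11.5% in MCR. Tmem151a, a transmembrane protein gene, was low in Control too (6.18% to 11.2%) but lower still in MCR, at 3.18%, 1.07% and 2.20% (difference −5.92 points, SE 1.86, adjusted p = 0.0128).

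At the methylated end, Mrpl12, a mitochondrial ribosomal protein, had 94.4% to 96.2% in the 5 Control mice, and 96.0%, 76.5% and 84.5% in the 3 MCR mice, so that the groups overlapped through MCR mouse 85. Its mean difference was −9.27 points (SE 2.76, adjusted p = 0.00959). Igsf9 (87.9% to 97.6% in Control) and Fgd5, an exchange factor for Cdc42 in endothelium (91.7% to 96.8%), did not pass the test in MCR. At Fgd5 the ICR mice ran from 81.2% to 95.4%. Ffar3, a receptor for short-chain fatty acids, had 91.4% to 95.0% in Control and 82.4%, 85.1% and 79.4% in MCR (−11.2 points, SE 2.68, adjusted p = 0.00273).

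The Control mice spread most at partly methylated members: the median SD of a CpG over the 5 mice was 1.58 points under 10%, 7.84 points at 50% to 70% and 3.84 points over 90%. Among stretches of 5 or more CpGs with a value in all 21 libraries, the widest ranges were at 3930402G23Rik (53.1% to 90.4%) and at Pou4f1, a neuronal transcription factor, where Control mouse 1 had 37.8% and the other Controls 3.06% to 8.86%. Rln3, a relaxin peptide, followed with 31.1% to 65.5%, and Chrm1, a muscarinic acetylcholine receptor, with 34.5% to 66.7%.

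Averaged over the 4534 members with a value in every library, Control mice had 61.9%, 63.7%, 61.1%, 59.3% and 61.8%, and MCR mice had 51.9%, 51.6% and 52.2%. The MCR mean of 51.9% ± 0.300 (SD, n = 3) was thus 9.66 points below the Control mean of 61.6% ± 1.59 (SD, n = 5), with no overlap. LFCR mice split: mice 63 and 67 had 51.8% and 52.3%, like MCR, while mice 69 and 72 had 57.3% and 59.9%, the last within the Control range. LFD mouse 42 had 53.5%, LFD mouse 48 57.6% and LFD mouse 47 60.1%. ICR mice had 56.1% to 60.4%, with mouse 103 lowest, and 4 of 5 were below every Control. Obese mouse 22 had 60.1%. The differences from Control were −6.24 points for LFCR, −4.49 for LFD and −3.04 for ICR.

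The other classes fell in the same mice. Island promoter CpGs averaged 19.6% in Control and 14.4% in MCR, and open sea gene bodies 71.9% and 61.2%. Members within 250 bp of a listed start averaged 40.9% and 34.0%, and members beyond 5000 bp 67.6% and 57.3%. The share of members with a value was 56.2% to 93.9% in MCR libraries and 48.8% to 99.6% in Control libraries, and its part in the differences was not tested.

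**Figure D2:**
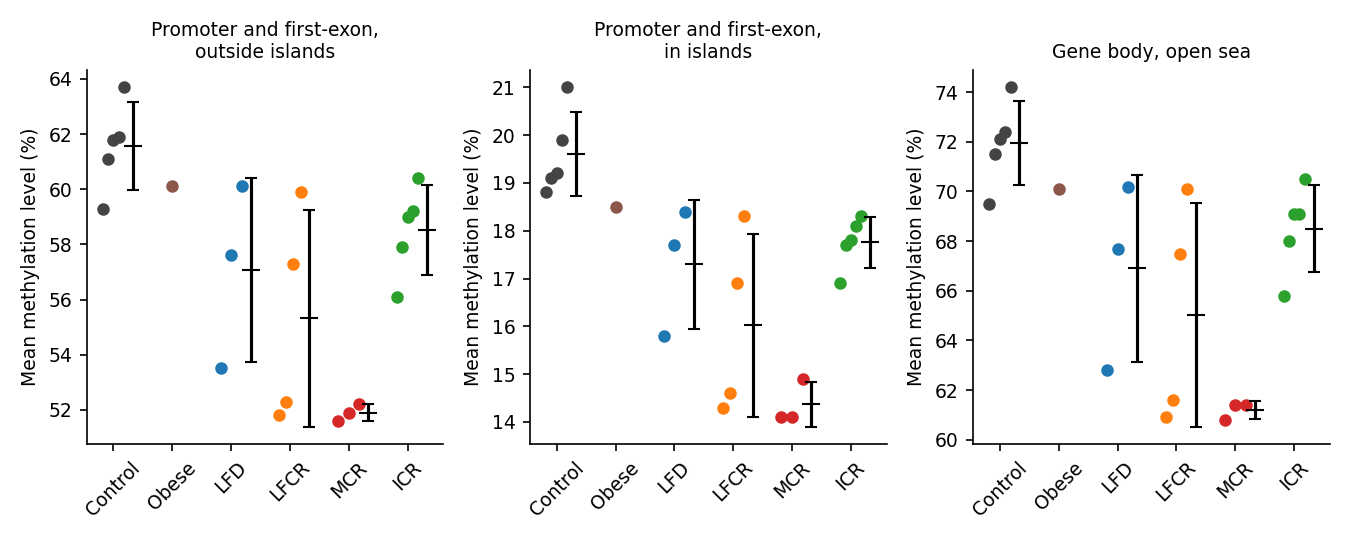
Mean methylation level of each mouse (points, percent, each panel with its own axis that does not start at 0) by diet group for members, island promoters and open sea gene bodies, with the mean and SD of each group of more than 1 mouse beside its points. The 3 MCR mice lie at 51.6% to 52.2% in members, below all 5 Control mice (59.3% to 63.7%), and 2 LFCR mice and 1 LFD mouse lie near them.

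Members with a Control level under 10% went the other way by a little, from 3.06% ± 0.173 in Control (n = 5) to 3.65% in LFD, 3.48% in LFCR, 3.6% in MCR and 3.47% in ICR. These CpGs were chosen by their low values in the Control mice, so this rise is a description only. Members at 10% to 80% fell from 51.5% to 41.4% in MCR and those over 80% from 88.4% to 76.9%.

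Across single CpGs, 6374 members had values in enough mice for a test of each CpG, and 6428 did not. In MCR 2386 were called lower than in Control at an adjusted p under 0.05 (37.4%, against 33.6% of all 126006 CpGs tested) and 409 higher (6.42%, against 4.67%). In LFCR 866 were called lower (13.6%, against 12.5%) and 127 higher (1.99%, against 1.55%). The LFCR counts turned on single mice: 0 and 1 CpGs were lower without LFCR mouse 63 or 67 and none was higher, while 1649 were lower and 262 higher without LFCR mouse 72. Without Control mouse 1, 2 or 13, 433, 118 and 465 were lower and 54, 21 and 64 higher. In LFD and ICR none was called (0 of all CpGs). The unadjusted p was under 0.05 at 1335 (20.9%, against 19.2% of all CpGs) and 894 members (14%, against 12.9%). The share of members called was therefore close to that of all CpGs in each comparison.

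By stretch, 527 of 958 were called lower in MCR (55.0%, against 51.5% of all 18658 stretches tested) and 86 higher (8.98%, against 6.05%). LFCR had 301 lower (31.4%, against 28.6%) and 49 higher (5.11%, against 3.18%). The median difference was −9.25 points in MCR, −5.54 in LFCR, −4.13 in LFD and −2.68 in ICR, and over all stretches −7.78, −4.83, −3.41 and −2.31. The LFCR calls rested on LFCR mice 63 and 67: without either of them only 1 member stretch was lower and 0 were higher. Without Control mouse 2, 137 were lower and 22 higher, and without Control mouse 13, 31 were higher.

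Losses and gains differed in their Control level. Stretches lower in MCR had a median Control level of 78.0% and those higher a median of 32.1%. Among members at 10% to 30% in Control, 22.9% of CpGs were called lower and 21.7% higher, with a median difference of −2.31 points. At 50% to 70%, 52.4% were called lower and 7.19% higher, with a median of −19.8 points. Over 90%, 32.6% were called lower and none higher. Open sea CpGs in gene bodies had like shares at the same levels: 20.1% were called lower and 22% higher at 10% to 30%. The shares were 50.5% and 6.01% at 50% to 70%, and 28.3% and 0.0344% over 90%. The same Control mice set both the level and the difference, and a high level leaves little room to rise. These shares by level are therefore descriptions only.

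**Figure D3:**
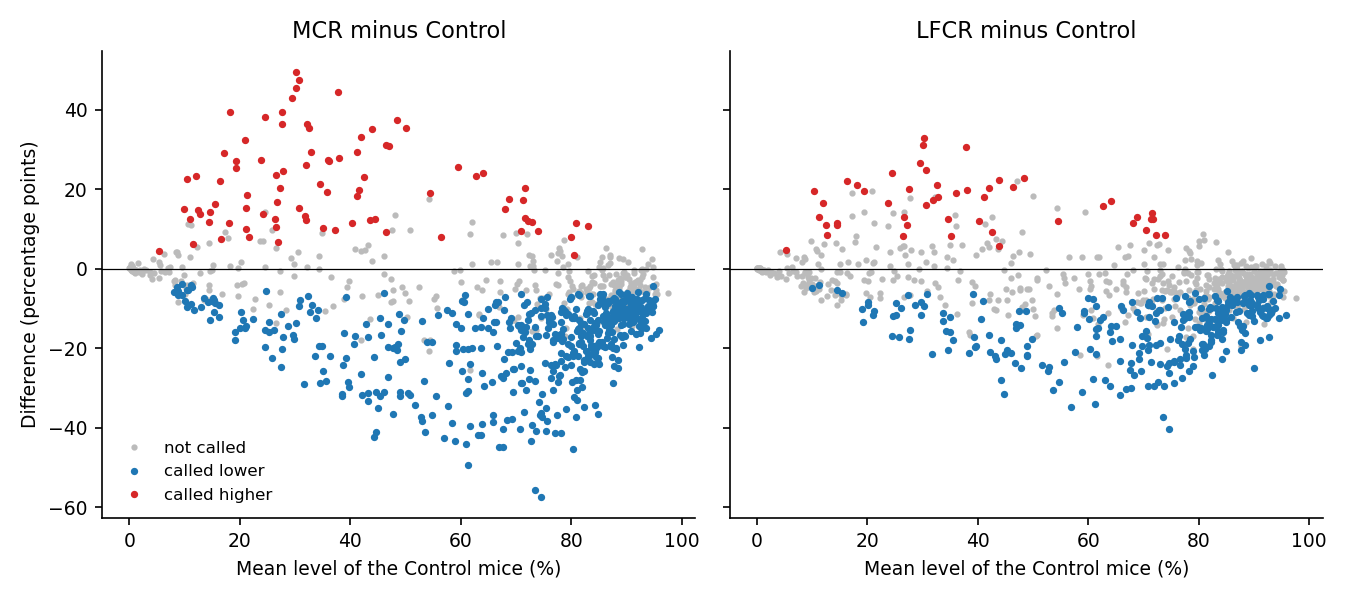
Difference from Control in percentage points (vertical axis) against the mean Control level in percent (horizontal axis) for 958 member stretches, for MCR (left) and LFCR (right), with stretches called lower and higher in colour. In MCR the 86 gains lie mostly at low and middle Control levels, and the 527 losses reach −57.3 points.

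By distance, 83 of 182 stretches within 250 bp of a listed start fell in MCR (45.6%) and 22 rose (12.1%). Between 250 and 1000 bp 61 of 103 fell (59.2%) and 10 rose (9.71%). Between 1000 and 5000 bp 137 of 217 fell (63.1%) and 17 rose (7.83%), and beyond 5000 bp 239 of 441 fell (54.2%) and 35 rose (7.94%). In the same order, the median Control level was 43.1%, 55.7%, 78.1% and 79.4%, so distance and level were not separated here. Of the 10 largest gains, 9 lay within 1000 bp of a listed start, and of the 10 largest losses 4 did. The full sets differed less: 38.1% of stretches called higher and 27.7% of those called lower lay within 1000 bp. Over all fitted member stretches with a distance it was 30.2%. Distances are to the nearest start in the RefSeq table, which has no entry for P3h4 or Pkp3 among these. The difference between losses and gains in distance was not tested.

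**Figure D4:**
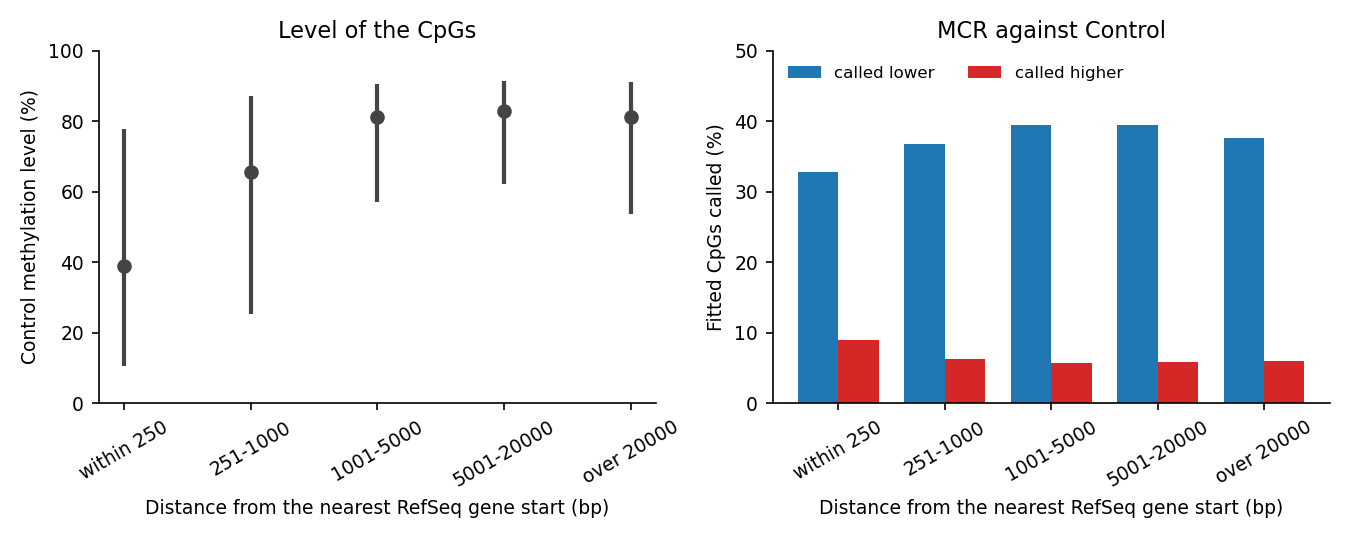
Left, the median Control level (points, percent) with the 25th to 75th percentiles (lines) of member CpGs by distance from the nearest RefSeq gene start in bp. Right, the percent of fitted member CpGs called lower and higher in MCR by the same distance. Members within 250 bp had a median of 39.0% and 32.8% were called lower, against 83.0% and 39.4% between 5000 and 20000 bp.

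The largest loss in MCR was at Cldn15 (chr5:136967847-136968030, 7 CpGs, 1st exon), a stretch that holds the CpGs marked in the piece printed above. Its average coverage was low, at 13.8 reads beside a median of 33.6 over members. Control mice 2, 5 and 13 had 73.3%, 73.9% and 76.7%, and MCR mice had 25.7%, 19% and 7.14%. The groups did not overlap, and the difference was −57.3 points (SE 8.59, adjusted p = 0.00053). LFCR mice had 14.6%, 28.9% and 59.4%, LFD mice 40.5%, 50.5% and 48.2%, ICR mice 42.0% to 53.6% and Obese mouse 22 43.9%. Thus all mice that had been obese and had a level here were below the 3 Controls measured. LFCR mouse 67 and ICR mouse 102 had no level. Beside MCR only LFCR passed the test (−40.3 points, SE 8.59, adjusted p = 0.0117).

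Actn4, an actin cross-linker, lost methylation over 4 CpGs annotated as 5'UTR and shared with Gm44699 (chr7:28923814-28923847, 38502 bp into the gene from its RefSeq start). Control mice 2, 5 and 13 had 74.3%, 67.7% and 78.5% and MCR mice 15.1%, 23.3% and 14.9%. The difference was −55.7 points (SE 11.7, adjusted p = 0.00168). A stretch of 3 CpGs shared by Mfrp, Rnf26 and Gm49380 (chr9:44107216-44107228) had 51.3% to 73.8% in the 5 Control mice and 8.33%, 19.1% and 8.10% in MCR (−49.4 points, SE 8.59, adjusted p = 0.000568). The deposited annotation does not say to which of these genes its CpGs belong.

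Hyal1, a hyaluronidase, had 76.6% to 88.7% in Control (n = 4) and 25.6%, 29.1% and 50% in MCR (−45.4 points, SE 8.77, adjusted p = 0.00112). Its LFCR difference of −14.9 points did not pass the test (SE 8.77, adjusted p = 0.199). Average coverage at this stretch was also low, at 16.9 reads. Cdc42ep4, an effector of the GTPase Cdc42, had 52.7% to 80.2% in Control and 24.0%, 19.9% and 22.4% in MCR over 8 CpGs (−44.8 points, SE 9.24, adjusted p = 0.00115). This stretch lies 23640 bp past the RefSeq start of Cdc42ep4. Here LFCR mice 63 and 67 had 18.2% and 20.5%, and LFCR mice 69 and 72 had 45.7% and 61.8%. Pkp3, a desmosome protein of epithelia, had 51.2% to 74.0% in Control and 14.9%, 13.9% and 22.0% in MCR over 14 CpGs (−44.0 points, SE 7.07, adjusted p = 0.00051).

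Sept9, a cytoskeletal GTPase, combined high coverage (168 reads on average) with a clear gap. Control mice had 60.3%, 60.4%, 57.1%, 46.8% and 60.0%, and MCR mice 17.0%, 9.19% and 17.2%. All 5 ICR mice, at 28.8% to 39.3%, also lay below every Control, yet the ICR difference of −25.1 points did not pass the test over all stretches (SE 6.13, adjusted p = 0.274). The LFCR difference was −34.7 points (SE 6.5, adjusted p = 0.0110). Rgp1, Cpsf4l and a stretch of Crispld2, Gm15684 and Gm20388 completed the 10 largest losses, at −44.7, −43.4 and −43.3 points. The last of them lies 43958 bp past the RefSeq start of Crispld2. In each of these 10 all 3 MCR mice were below every Control measured. The 10 were chosen by their MCR differences, so this separation is a description only.

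Gains had the reverse pattern in the same mice. At Arhgap30, a GTPase-activating protein (chr1:171389568-171389599, 3 CpGs), Control mice 2, 5, 10 and 13 had 17.2%, 32.0%, 49.1% and 22.5%, and MCR mice had 83.1%, 75.9% and 80%. The difference was 49.5 points (SE 12.1, adjusted p = 0.00329). LFCR mice 63 and 67 (77.5% and 83.5%) and LFD mouse 42 (76.2%) were within the MCR range or next to it, as was ICR mouse 103 (74.3%).

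Dok3 (chr13:55528463-55528537, 5 CpGs at the start of the gene) had 32.7%, 17.4%, 27.1%, 45.3% and 31.2% in Control and 81.6%, 74.4% and 78.3% in MCR. The difference was 47.4 points (SE 8.41, adjusted p = 0.000601). Galnt6, an enzyme that starts O-linked glycans on mucins, had 25.1% to 38% in Control and 67.8%, 73.7% and 76.2% in MCR (43.0 points, SE 5.41, adjusted p = 0.000447). LFCR (39.3% to 70.4%) and ICR (40.1% to 52.4%) also lay above every Control at Galnt6, and LFCR passed the test (26.5 points, SE 4.97, adjusted p = 0.0110).

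Rps6ka1, in a stretch of 7 CpGs shared with Gm12977, had 17.0% to 45.2% in Control and 72.0%, 78.1% and 76.7% in MCR (45.5 points, SE 7.72, adjusted p = 0.000537). The other Rps6ka1 stretch, which holds the printed piece, went from 42.0% to 75.3%. P3h4, a partner of collagen-modifying enzymes, had 26.1% to 50% in Control and 83.4%, 81.0% and 82.7% in MCR (44.5 points, SE 8.91, adjusted p = 0.000994). F2rl3, the protease-activated receptor through which thrombin acts on platelets, rose by 39.4 points (SE 7.48, adjusted p = 0.000838). Arhgap27, another GTPase-activating protein, rose by 38.1 points (SE 6.84, adjusted p = 0.000616) and Atp2b2, which exports calcium into milk, by 37.4 points (SE 8.29, adjusted p = 0.00188).

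**Figure D5:**
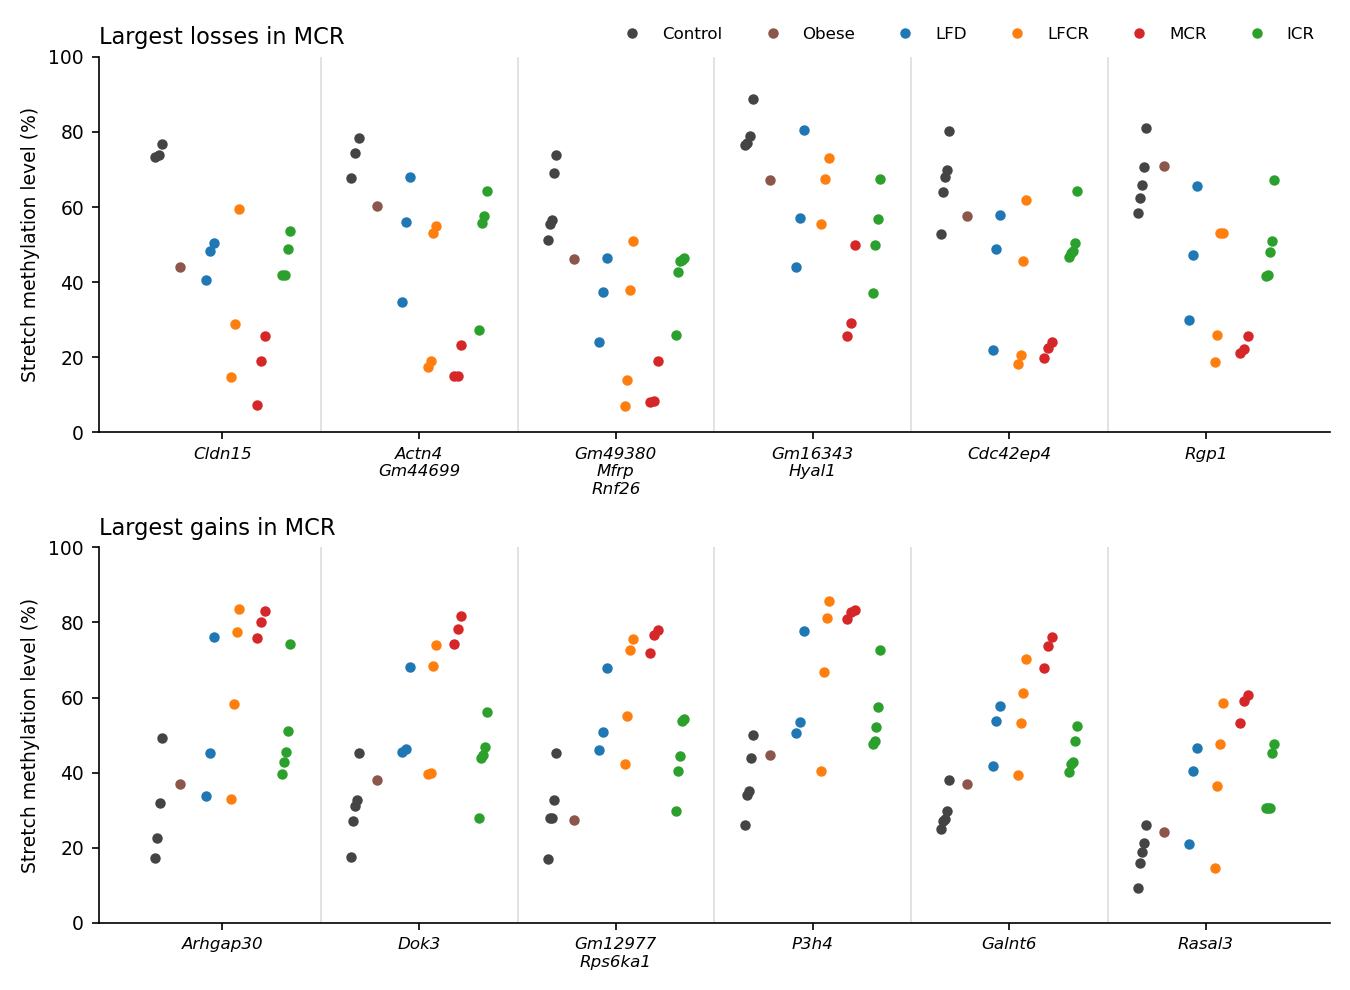
Methylation level (vertical axis, percent) of each mouse (points, coloured by diet group) at the 6 stretches of largest loss (top) and the 6 of largest gain (bottom) in MCR, with no group mean drawn. The 3 MCR mice lie beyond all Control mice at each of the 12 stretches, for example at 74.4% to 81.6% against 17.4% to 45.3% at Dok3. The stretches were chosen by these differences.

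In LFCR the 10 largest losses began with Cldn15, Actn4 and Sept9 and included Tnk2, a tyrosine kinase downstream of Cdc42, and Tnks1bp1, a binding partner of tankyrase. The Tnk2 stretch, shared with Tnk2os, had 58.5% to 72.6% in Control and 21.5%, 21.9%, 45.9% and 47.4% in LFCR (−31.7 points, SE 5.67, adjusted p = 0.0110). Tnks1bp1 had 30.0% to 59.8% in Control, 2.63%, 2.31%, 18.6% and 29.1% in LFCR and 4.08%, 3.81% and 2.93% in MCR. LFCR and MCR share the same Control mice, so one is no independent check of the other. None of the 20 largest LFCR losses and gains passed without LFCR mouse 67, and 19 of them did not pass without mouse 63, where Cldn15 could not be fitted. The adjusted p then rose to 0.0563 at Cldn15, to at most 0.0576 at Tnk2, Sept9 and Galnt6, and to at most 0.0884 at Actn4. Several of the 20 also failed without single Control mice, among them Arhgap30, Atp2b2, Tm6sf1 and Rasal3. Over all alternatives that these failed, the adjusted p reached up to 0.157, at Rasal3. LFCR mouse 67 had no level at Cldn15, so the rise there did not come from its level at that stretch.

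Over the 527 stretches called lower in MCR, the median difference from Control was −15.4 points in MCR, −9.82 in LFCR, −7.41 in LFD and −5.21 in ICR. Over the 86 called higher it was 18.7, 12.3, 9.77 and 7.61. Obese mouse 22 differed from the Control mean by a median of −3.00 and 4.11 points at these stretches. The MCR values chose the stretches and all comparisons share the Controls, so these medians are descriptions.

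Marker lists of cell types and pathways were then read for the members. Of 81 leukocyte genes, 8 had a fitted stretch, and 7 of the 8 rose in MCR, none fell, with a median of 33.9 points (all member stretches −9.25). These 7 were Arhgap30, Dok3, Rasal3, Lat, Inpp5d, Rasgrp4 and Vav1, several of which were put in the list because earlier results of these data were known. Inpp5d passed by little (adjusted p = 0.048, Control n = 3) and failed under 6 of the alternatives, among them leaving out any of the 3 MCR mice (adjusted p up to 0.15). At Lat, the T cell adaptor, Control mice had 32.0%, 19.9%, 37.6%, 41.9% and 31.7%, and MCR mice 69.5%, 69.7% and 64.9% (35.4 points, SE 7.89, adjusted p = 0.00176). Vav1, an exchange factor of blood cells, had 7.40% to 15.8% in Control and 39.2%, 38% and 28.9% in MCR (23.4 points, SE 4.93, adjusted p = 0.00129).

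In LFCR 6 of the 8 leukocyte stretches rose, beside 5.11% of all member stretches. Without LFCR mouse 63 or 67 none of them did, since 0 member stretches were then called higher. In LFD and ICR none of the 8 passed, with medians of 17.3 and 12.3 points. By CpG, 30 of 33 in 11 genes of the list rose in MCR and none fell, beside 6.42% and 37.4% of all member CpGs tested. Apart from the single CpGs of Zap70 (40.0% to 62.0%) and Spi1 (17.7% to 32.5%), these CpGs belong to the genes whose stretches rose. They are therefore no separate support. Over 5 list stretches with a value in every library, mean levels were 17.5% to 35.5% in Control, 57.8% to 63.9% in MCR, and 59.9% and 55.4% in LFCR mice 63 and 67. LFD mouse 42 was at 55.3% and ICR mouse 103 at 48.8%, so the mice with high values here were those with low mean levels over all members.

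Of 35 adipocyte and thermogenic genes, 3 were measured in 4 stretches, of which 3 fell in MCR and none rose (median −25.8 points). Both Cpt1b stretches, close together at chr15:89425195-89425264 and chr15:89425472-89425765, are among these falls, and the other is at Acacb. Cpt1b, the muscle and brown fat enzyme that brings fatty acids into mitochondria, had, in a stretch shared with Gm44502, 66.2% to 81.2% in Control and 34.4%, 33.2% and 33.7% in MCR over 20 CpGs (−39.2 points, SE 5.35, adjusted p = 0.000455). In LFCR it was lower by −24.0 points (SE 4.92, adjusted p = 0.0113). Acacb, an acetyl-CoA carboxylase of mitochondria whose stretch lies 18852 bp before its RefSeq start, had 34.0% to 49.3% in Control and 21.3%, 7.29% and 18.2% in MCR (−26.4 points, SE 4.95, adjusted p = 0.000722). Pck1, which makes glycerol precursors in fat, had 87.7% ± 5.06 in Control (n = 3) and 75.7% ± 3.59 in MCR (n = 3), and missed the threshold.

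Among 36 genes of insulin, PI3K and mTOR signalling, 5 stretches were measured, and 4 fell in MCR and none rose (median −22.5 points). Akt1, the kinase of the pathway, had 70% to 84.9% in Control and 46.8%, 45.1% and 46.3% in MCR (−30.6 points, SE 7.13, adjusted p = 0.00229). Pik3cd, the PI3K subunit of leukocytes, had 22.6% to 27.5% in Control (n = 4) and 0.654%, 6.41% and 2.72% in MCR (−22.5 points, SE 4.01, adjusted p = 0.000644). Irs2, the insulin receptor substrate, fell by 18.7 points, and the stretch of Airn and Igf2r, imprinted genes, by 31.3 points. Igf2, an imprinted growth factor, had 46.2% ± 2.23 in Control (n = 5) and 44.8% ± 6.58 in MCR (n = 3) and did not pass.

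The epithelial lists held few members. Of 30 luminal and milk genes 3 were measured and 1 fell in MCR. It was a stretch annotated as TSS1500 and shared by 9230102O04Rik and Gata3, the luminal transcription factor, and it lies 6774 bp before the RefSeq start of Gata3. It had 40.6% to 61.0% in Control (n = 4) and 10.4%, 7.62% and 16.0% in MCR (−36.5 points, SE 6.90, adjusted p = 0.000825). Wap, a milk protein, had 78.9% to 96.7% in Control and 75.3% to 96.7% in MCR, and Krt7, a duct keratin, 36.3% to 42.9% and 31.9% to 40.6%, both overlapping. The 1 basal gene measured, Itgb4 of hemidesmosomes, fell in both of its stretches, by 23.7 and 6.73 points. The smaller fall failed the test under 8 of the alternatives.

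Other lists were mixed. Of 6 endothelial stretches 3 fell in MCR and 1 rose. Nos3, the endothelial nitric oxide synthase, had 66.8% to 81.9% in Control and 31.9%, 30.1% and 42.2% in MCR in its first exon stretch (−40.8 points, SE 7.58, adjusted p = 0.000702), while Eng, endoglin, rose from 14.4% to 23.5% in Control to 32.4%, 31.2% and 25.4% (11.6 points, SE 4.17, adjusted p = 0.0253). Eng did not pass without Control mouse 2, MCR mouse 85 or MCR mouse 95 (adjusted p up to 0.0897), nor did the other Nos3 stretch without MCR mouse 96 or with neighbours at most 100 bp apart (adjusted p up to 0.125). Vwf did not pass, at 64.6% ± 4.86 in Control (n = 3) and 61.9% ± 4.61 in MCR (n = 3). Of 9 skeletal muscle stretches 5 fell and 1 rose. A fall at Tnni1, a troponin, failed without Control mouse 2 or MCR mouse 85 (adjusted p up to 0.0646). The 1 that rose was Myog, the muscle transcription factor, at 63.5% to 73.1% in Control and 86.3%, 85.9% and 87.0% in MCR (17.5 points, SE 3.79, adjusted p = 0.00147). All 5 ICR mice (75.3% to 84.6%) were above every Control at Myog, but ICR did not pass (adjusted p = 0.274).

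Among inflammation and interferon genes 2 of 4 stretches fell, at Irf7 and Irf8, transcription factors of interferon responses. A second Irf7 stretch was unmethylated in all groups, with 0.215% in Control and 0.171% in MCR, while the first went from 91.4% to 79.7%. The Irf8 fall (−17.2 points, SE 6.29, adjusted p = 0.0274), in a stretch shared with Gm20388, failed when any of Control mice 2 and 13 and MCR mice 95 and 96 was left out (adjusted p up to 0.157). The other Irf8 stretch differed by 8.41 points and did not pass (SE 4.21, adjusted p = 0.0967). Of the 2 fibroblast and matrix stretches 1 fell, of the 2 liver-type stretches 1 fell, and of the 4 neuronal and sensory stretches all 4 fell. The liver-type one, at Hnf4a, failed when any of Control mice 2 and 5 and MCR mice 85 and 96 was left out (adjusted p up to 0.099), and the fibroblast one, at Pdgfrb, with all 25 libraries (adjusted p = 0.272). Mbp, which encodes myelin basic protein, was among the neuronal genes, at 72.5% to 84.4% in Control and 54.8%, 64% and 59% in MCR in 1 of its 2 stretches (−21.3 points, SE 5.86, adjusted p = 0.00606). The other failed without MCR mouse 95 or 96 (adjusted p up to 0.0678). These counts stand beside 55.0% lower and 8.98% higher over all member stretches.

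In LFD no member stretch passed, and 1 of all 18658 did (0.00536%). The unadjusted p was under 0.05 at 295 member stretches (30.8%, against 26.4% of all stretches). The smallest adjusted p was 0.0863, shared by 4 stretches. At Gpr146, a receptor gene sharing its stretch with 3110082I17Rik, Control mice had 27.0% to 34.4% and LFD mice 16.4%, 18.6% and 22.5%, with no overlap (−11.6 points, SE 2.52). At the stretch of Coro7, Dnaja3 and Vasn, Control mice had 79.1% to 88.9% and LFD mice 53.2%, 69.3% and 69.9% over 18 CpGs (−19.3 points, SE 4.19). Ccdc9 and Inpp5e, a ciliary phosphatase, differed by −9.00 and −10.8 points. Without LFD mouse 47, the LFD mouse nearest Control, 94 member stretches passed, and without LFCR mouse 72 10 did.

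ICR also had no call (0 of all stretches), with a smallest adjusted p of 0.274. The unadjusted p was under 0.05 at 185 member stretches (19.3%, against 16.7% of all stretches). The smallest p was at Hhatl, a membrane protein gene of muscle, where Control mice had 74.8% to 81.3% and ICR mice 67.8%, 60.9%, 69.3%, 64.1% and 63.7% (−13.2 points, SE 2.79). No ICR mouse overlapped the Controls there. Ndufb7, a subunit of respiratory complex I, had 73.2% to 77.6% in Control and 66.4% to 72.5% in ICR (−6.94 points, SE 1.71).

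Between diets, no member stretch was called in MCR against LFCR, nor in LFCR against LFD (0 of all stretches in both). The unadjusted p was under 0.05 at 123 (12.8%, against 12.8% of all stretches) and 49 members (5.11%, against 5.62%). Without MCR mouse 85, 1 stretch was called in MCR against LFCR. By CpG, 2 members were lower in MCR than in LFCR, with 0.00794% of all CpGs called lower and 0.00238% higher. They were named after their values were seen. The first, in Ahdc1 (chr4, position 133064127), had 77.1%, 73.3% and 75% in MCR, 91.4% to 94.9% in LFCR and 90.2% to 96.2% in Control (−17.7 points from LFCR, SE 2.06, adjusted p = 0.00993). The second, in Zfhx2 and Gm20687 (chr14, position 55073776), had 75%, 80% and 82.4% in MCR and 88.6% to 100% in LFCR (−16.2 points, SE 2.35, adjusted p = 0.0407). No LFCR mouse overlapped the MCR mice at either CpG.

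Stretches with the smallest p in MCR against LFCR were Grin3b, a glutamate receptor subunit, and a stretch of Cx3cr1 and Xirp1. Grin3b had 90.7% to 95.5% in Control, 85.7% to 95.3% in LFCR and 80.3%, 80% and 76.2% in MCR, a difference from LFCR of −11.1 points (SE 2.24, adjusted p = 0.166). The second lies 50904 bp from the RefSeq start of Cx3cr1, the fractalkine receptor, and there MCR mice had 68.4%, 67.3% and 68.1% and LFCR mice 72.1% to 87.8% (−12.0 points, SE 3.04, adjusted p = 0.273). The groups did not overlap at either, but neither passed. For LFCR against LFD the smallest p was at Rph3a, a synaptic vesicle protein, with 58.8%, 49.2%, 54.2% and 50.6% in LFCR and 64.5%, 66.5% and 65.2% in LFD (−12.2 points, SE 2.52, adjusted p = 0.651).

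The stretches most like Cldn15 across mice, over 17 libraries and among 850 stretches on other chromosomes, were the smaller Cpt1b stretch of 4 CpGs (Pearson r = 0.924), Atp9a and Tnk2 (0.919 each), the stretch of Mfrp (0.915) and Srcin1 (0.914). Their MCR differences were −25.1, −37.3, −38.5, −49.4 and −17.2 points. The points of these correlations share the libraries and the differences in mean level between mice, so they are descriptions.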

How the data were processed

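The authors deposited 1 table of CpGs on mm10, with the methylation level of each of 25 libraries as a fraction of reads from 0 to 1. The table also holds a coverage signal, the average number of reads over 21 libraries, per the file headers. Per the submitters' processing notes, reads were processed with Bismark; versions, filters and trimming are not given in the sources used here. Each library column was assigned to a mouse through the identical name in the sample's title. Columns of group values and of the authors' own comparison were not used here.

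Levels are printed in percent and differences in percentage points. CpGs with an average coverage of at least 10 and a value in at least 3 mice of each of Control, LFD, LFCR, MCR and ICR were fitted with limma (3.58.1, R 4.3.3), 1 mean per group on the fraction, with every library weighted alike and the variance moderated over all CpGs. Tests were two-sided, with Benjamini-Hochberg adjustment over all CpGs or all stretches, and a call is an adjusted p under 0.05. Obese mouse 22 entered no comparison. Stretches of members and of other CpGs were built alike and fitted together. For each mouse, the deviations from the CpG means were averaged over its measured CpGs in a stretch, at least 0.5 of them, and added to the stretch's average CpG mean. A level can therefore fall slightly outside 0 to 100%. A mean level over members got no test. Labels do not say how mice were housed or whether libraries were made together, and libraries were taken as separate mice from their numbers, so p-values measure the spread between these libraries.

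The members, gene lists, groups and tests were chosen with earlier results of these data known. Named stretches are the 10 largest losses and 10 largest gains called in MCR and in LFCR, and the 5 of smallest p in LFD, in ICR and between diets. Further ones are the 6 lowest, 6 highest and 6 most variable in Control among stretches of 5 or more CpGs, up to 3 of smallest p per list, the whole leukocyte list, and the 5 most like the largest loss. Not all of them are printed, and 2 stretches that the list rules name are counted in their lists and otherwise not reported here. Distances, windows and sequences come from RefSeq tables of GRCm38.p6. All 8382 measured positions inside a RefSeq window were a CG there. The printed pieces and the motifs were chosen after the data were seen. Alternatives were coverage minimums of 5 and 20, an arcsine square root scale, all 25 libraries, a value in every library, a minimum difference, a variance trend with robust moderation, other gaps and sizes of stretches, no 1st exon CpGs, and leaving out each mouse in turn. The fit was tested on simulated data. Figures were drawn with matplotlib 3.10.9.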

Additional observations from a re-analysis of the deposited data

Results flagged for a closer look

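Over the named stretches, 258 groups of 4 or 5 mice were examined, and in 18 of them 1 mouse lay far from the rest of its group (gap to the nearest mouse over the whole range above the 95% critical value of Dixon's test). Chance gives about 1 in 20 for independent groups not chosen by their values. Here the stretches were named by their values, Pou4f1 by its wide Control range, and the same mice recur. That rate therefore does not apply to these flags. Values are percent methylation, with the nearest mouse of the group in brackets.

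In Control, mouse 1 had 37.8% at Pou4f1 (8.86%) and 96.2% at Mrpl12 (94.8%). Control mouse 13 had 93.6% at Ccdc9 (90.4%). Control mouse 10 was low at Art5 with 1.28% (5.77%), at Irf7 with 85.0% (92.3%), at Sept9 with 46.8% (57.1%) and at Mbp with 72.5% (81.3%). This mouse also had the lowest mean level over all members among the Controls (59.3%).

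In ICR, mouse 112 had 83.1% at Inpp5e (74.4%), 72.9% at Irf8 (63.9%), 64.4% at Cdc42ep4 (50.4%) and 39.3% at Sept9 (30.9%). ICR mouse 103 had 56.0% at Lat (40.1%), 25.8% at the stretch of Mfrp and Rnf26 (42.7%) and 70.7% at an unnamed stretch at chr13:56176525-56176572 (55.8%). Over all members, mouse 112 had the highest and mouse 103 the lowest mean level in ICR, 60.4% and 56.1%. ICR mouse 105 had 69.7% at Nos3 (63.5%) and ICR mouse 102 had 81.2% at Fgd5 (91.4%). In LFCR, mouse 67 had 68.5% at Inpp5e (73.5%) and mouse 63 had 21.1% at Gpr146 (25.8%).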

How the results depend on the processing

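The MCR counts were within 1.5 times of the reported ones under every alternative except those that fit fewer stretches. With 5 or more CpGs per stretch (512 member stretches fitted) 326 were lower and 48 higher in MCR, and without 1st exon CpGs (270 fitted) 134 lower and 23 higher. The LFCR counts moved more. With all 25 libraries 478 CpGs were lower and 72 higher, and 191 stretches lower. Without 1st exon CpGs 85 stretches were lower and 12 higher.

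Leaving out each mouse in turn gave 1902 to 2443 CpGs lower and 303 to 418 higher in MCR, and 461 to 567 stretches lower and 72 to 87 higher. For LFCR it gave 0 to 1649 CpGs lower and 0 to 262 higher, and 1 to 406 stretches lower and 0 to 70 higher, lowest without LFCR mouse 63 and highest without mouse 72. LFD had 0 to 94 stretches (94 without LFD mouse 47) and MCR against LFCR 0 to 1. The mean difference from Control over members ranged from −10.3 to −9.14 points for MCR, from −7.77 to −5.07 for LFCR, from −5.98 to −2.71 for LFD and from −3.63 to −2.46 for ICR.

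Of the values at named stretches under these alternatives, 2344 kept their direction and side of the threshold, 93 no longer passed it, 14 newly passed it and 5 changed sign. The sign changed at 1 uncalled stretch, Fbln2, which was 0.0841 points with a coverage of at least 20, 0.0633 on the arcsine scale, and −1.22 to 0.618 with each mouse left out. The causes were not tested. No paired analysis was possible because the mouse numbers differ between groups. Without read depth per library, the precision of a single value is unknown.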
